A study of Mus musculus with 28 samples.

Results

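The genes described here are 40 genes of the endoplasmic reticulum (ER) that fold, modify, export and degrade secreted proteins, or that sense and adjust this work in the unfolded protein response. They were named by gene symbol from their roles, at a time when earlier results of these data were known, so they are not an unselected sample of genes. Of the 40, 39 were found by symbol in the deposited table of 14219 genes, and Selenos, listed there under the older symbol Vimp, was found by its Ensembl ID. All 40 passed the filter of at least 1 CPM (reads scaled to a common library size) in at least 6 libraries, which left 13591 genes to be tested. They fall into 10 lumenal chaperones, 7 disulfide enzymes, 7 stress sensors and regulators, 9 genes of ER-associated degradation, and 7 genes of translocation, glycosylation and export.

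The RNA came from pancreatic islets of 28 male mice aged 10 to 12 weeks on a mixed C57Bl6 and 129sv background, with 1 library per mouse. Mice labelled βKlf6KO were Klf6flox/flox;Ins1Cre/+, so that Cre, knocked into 1 Ins1 allele, is driven in β cells. Mice labelled control were Klf6flox/flox;Ins1+/+ and carried the same floxed Klf6 alleles without Cre. Each genotype was given saline (6 libraries labelled control and 6 labelled βKlf6KO) or S961, a peptide antagonist of the insulin receptor (8 and 8). Batches of 120 to 150 hand-picked islets per mouse were cultured overnight before RNA extraction, so every library mixes β cells with other islet cells and attached tissue. In such bulk samples fewer cells of a type and less RNA per cell cannot be told apart.

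β cells make proinsulin at a high rate and fold it in the ER, where chaperones such as BiP (Hspa5) hold unfolded chains and protein disulfide isomerases form and rearrange disulfide bonds. When unfolded protein builds up, the sensors ATF6, IRE1 (Ern1) and PERK (Eif2ak3) act through cleaved ATF6, spliced Xbp1 mRNA and slowed translation with ATF4. ATF6 and XBP1 act on ER stress response elements upstream of chaperone genes, and chains that cannot fold are returned to the cytosol for degradation. Gene counts do not measure Xbp1 splicing, ATF6 cleavage or the phosphorylation of PERK.

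The upstream sequences show a feature that many members share. Members were chosen by role, and roles in the unfolded protein response go with this element. Its share among them is therefore not independent of the choice. Promoter entries of RefSeq (GRCm38.p6), spanning 250 bases before to 50 bases after the start, were found for 32 of the 40 members. Both strands were searched for the ER stress response element (ERSE), which is CCAAT and CCACG with 9 free bases between them, for ERSE-II, which is ATTGG and CCACG with 1 free base between them, and for the part CCACG alone, which lies within both. ERSE was present in 10 of 32 members (31.2%) and in 37 of 27025 genes with an entry (0.14%). ERSE-II was present in 2 of 32 members, Dnajb11 and Herpud1, and in 12 of 27025 genes, and CCACG in 26 of 32 members (81.2%) against 35.48% of all genes. By role, ERSE stood upstream of 5 of 8 chaperones with an entry, 3 of 7 disulfide enzymes, 2 of 8 degradation genes, 0 of 5 sensors and regulators and 0 of 4 translocation and export genes. A match is a description of these letters, not a measured site, and no match says only that the letters are not in this window.

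The ERSE matches, and the ERSE-II match of Herpud1, are shown because they carry this shared feature. They read 5′ to 3′ on the gene's own strand with the fixed bases in capitals, and matches on the reverse strand begin with CGTGG.
Hspa5: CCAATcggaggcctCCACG
Hsp90b1: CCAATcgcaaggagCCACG
Hsp90b1 (reverse strand): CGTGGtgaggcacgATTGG
Calr (reverse strand): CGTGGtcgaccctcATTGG
Canx: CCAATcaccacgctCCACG
Pdia6: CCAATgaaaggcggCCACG
Dnajc3: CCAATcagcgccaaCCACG
Creld2 (reverse strand): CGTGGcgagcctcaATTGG
Herpud1 (ERSE-II): ATTGGgCCACG
Syvn1: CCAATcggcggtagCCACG
Derl3 (reverse strand): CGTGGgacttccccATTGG
Ero1lb (reverse strand): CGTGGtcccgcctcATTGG

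The stretches upstream of 4 genes that were lower in libraries labelled βKlf6KO after S961 are shown next, since 2 of them hold ERSE and 2 do not. Bases within an exon of the gene in GENCODE M21 were left out. Capitals mark the fixed bases of ERSE in Calr (chr8:84846935-84847181, minus strand) and Pdia6 (chr12:17266339-17266544, plus strand). They mark the 3 copies of CCACG in Selenos (chr7:66079399-66079648, plus strand), a stretch that also overlaps an exon of the antisense gene Gm45081. The stretch of Sec24d (chr3:123267246-123267454, plus strand) holds neither and has no capitals. The 1 copy of CCACG in its promoter entry, counted above, lies in the exon bases left out.
Calr: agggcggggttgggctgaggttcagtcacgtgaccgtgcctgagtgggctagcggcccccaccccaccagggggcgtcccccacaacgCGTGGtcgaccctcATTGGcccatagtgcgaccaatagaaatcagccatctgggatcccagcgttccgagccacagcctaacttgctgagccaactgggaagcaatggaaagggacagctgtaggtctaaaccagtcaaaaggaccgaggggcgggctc
Pdia6: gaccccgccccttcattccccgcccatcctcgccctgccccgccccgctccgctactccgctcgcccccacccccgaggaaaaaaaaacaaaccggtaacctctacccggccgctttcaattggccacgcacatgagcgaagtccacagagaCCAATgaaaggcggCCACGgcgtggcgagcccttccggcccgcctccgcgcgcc
Selenos: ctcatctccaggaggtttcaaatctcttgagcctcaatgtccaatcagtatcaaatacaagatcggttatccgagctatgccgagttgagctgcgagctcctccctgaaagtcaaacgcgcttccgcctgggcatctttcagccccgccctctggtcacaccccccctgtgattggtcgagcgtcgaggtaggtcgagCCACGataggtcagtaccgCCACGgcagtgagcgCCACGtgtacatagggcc
Sec24d: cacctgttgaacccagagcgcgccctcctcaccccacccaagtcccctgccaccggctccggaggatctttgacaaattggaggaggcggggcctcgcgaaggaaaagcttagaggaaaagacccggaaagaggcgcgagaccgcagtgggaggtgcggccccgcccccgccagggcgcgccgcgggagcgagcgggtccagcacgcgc

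Reads over the listed genes ranged from 28868638 to 45001633 per library, at which 3 reads correspond to 0.0685 to 0.105 CPM. Klf6 RNA did not follow the genotype labels. Its lowest, median and highest values were 6.35, 6.99 and 7.67 log2 CPM in control saline, 6.69, 6.89 and 7.41 in βKlf6KO saline, 6.18, 6.79 and 8.42 in control S961 and 6.38, 7.34 and 7.94 in βKlf6KO S961, with limma adjusted p = 0.974 after saline and 0.517 after S961. The labels do not name the floxed exons, and the counts cover the whole gene. After saline the log2 ratio of Ins1 to Ins2 had a median of -1.78 in control libraries (range -2.35 to -0.49). In βKlf6KO libraries it was -1.25 (-1.81 to -1.05). After S961 the medians were -1.27 in control (-2.38 to -0.26) and -2.16 in βKlf6KO (-2.25 to -0.86). Cre sits in 1 Ins1 allele of βKlf6KO mice, yet the βKlf6KO median was higher than control after saline and lower after S961. This ratio did not follow the labels either, and the ranges overlapped. Groups are therefore called by their labels throughout. Libraries 4 of control saline and 2 and 8 of control S961 stood apart from the rest on the first principal component of all genes, which held 54.9% of the variance and ran with transcript GC content (Spearman correlation across genes -0.845). All 3 were labelled control, so results are given with and without them. Their Ins2 RNA was the lowest of all 28 libraries, at 13.16, 12.31 and 13.57 log2 CPM in the order named. The other control libraries lay between 15.33 and 17.24. Their Ins1 RNA, at 12.67, 12.05 and 12.14, was the lowest of the control libraries.

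Members differed widely in abundance, as the plot of levels per kilobase shows. Per kilobase of exons, the median of the control saline libraries was highest for Hspa5 (682 CPM per kb), followed by the disulfide enzymes Pdia3 (610 CPM per kb) and P4hb (532 CPM per kb) and the chaperones Hsp90b1 (484 CPM per kb) and Calr (362 CPM per kb). The ranges of single libraries of neighbours in this order overlapped, such as 490 to 1548 CPM per kb for Hspa5 and 475 to 1709 CPM per kb for Pdia3. Among sensors and factors, Xbp1 stood at 206 CPM per kb, Ern1 at 29.5 CPM per kb, Atf6 at 25.4 CPM per kb and Eif2ak3 at 23.4 CPM per kb. The lowest members were the ubiquitin ligase gene Syvn1 (6.36 CPM per kb) and Derl3 (1.59 CPM per kb), a derlin of the degradation channel. Derl3 reached 1 CPM in 26 libraries and every other member in all 28.

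**Figure D1:**
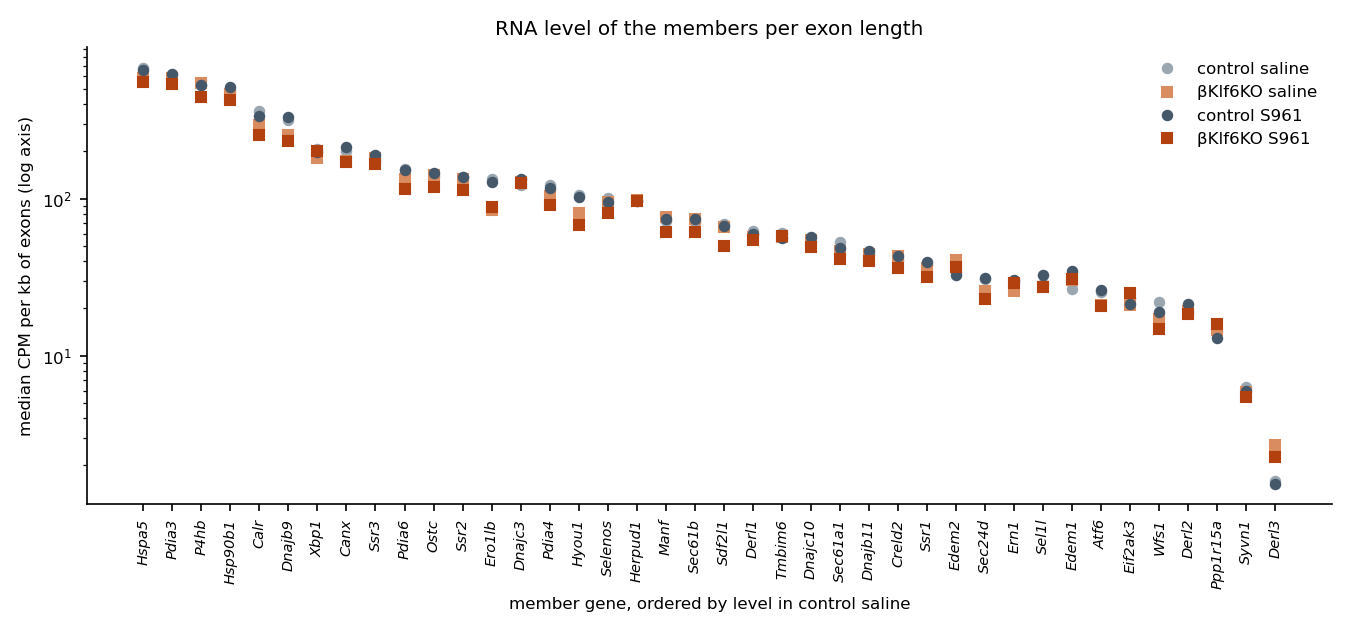
Median RNA level of the 40 members in each labelled group, in CPM per kilobase of exons on a log axis, ordered by the control saline median. Hspa5, Pdia3, P4hb and Hsp90b1 stand highest in all 4 groups, and Derl3 stands lowest.

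After S961, 6 of the 40 members were lower in βKlf6KO than in control libraries, as labelled, and none was higher, at a Benjamini-Hochberg adjusted p below 0.05 over all 13591 genes in limma. Over all genes, 2.01% were called lower and 2.35% higher. The 6 were the COPII coat gene Sec24d, the chaperone gene Calr, the disulfide enzyme genes Pdia4 and Pdia6, the sensor gene Atf6 and the degradation gene Selenos. The log2 differences of the 40 had a median of -0.27, against 0.02 over all genes tested, and 33 of 40 were below 0, against 47.6% of all genes. At an unadjusted p below 0.05, 22 members were lower and 0 higher, against 10.9% and 12% of all genes. Members belong to shared pathways and are not independent of one another.

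**Figure D2:**
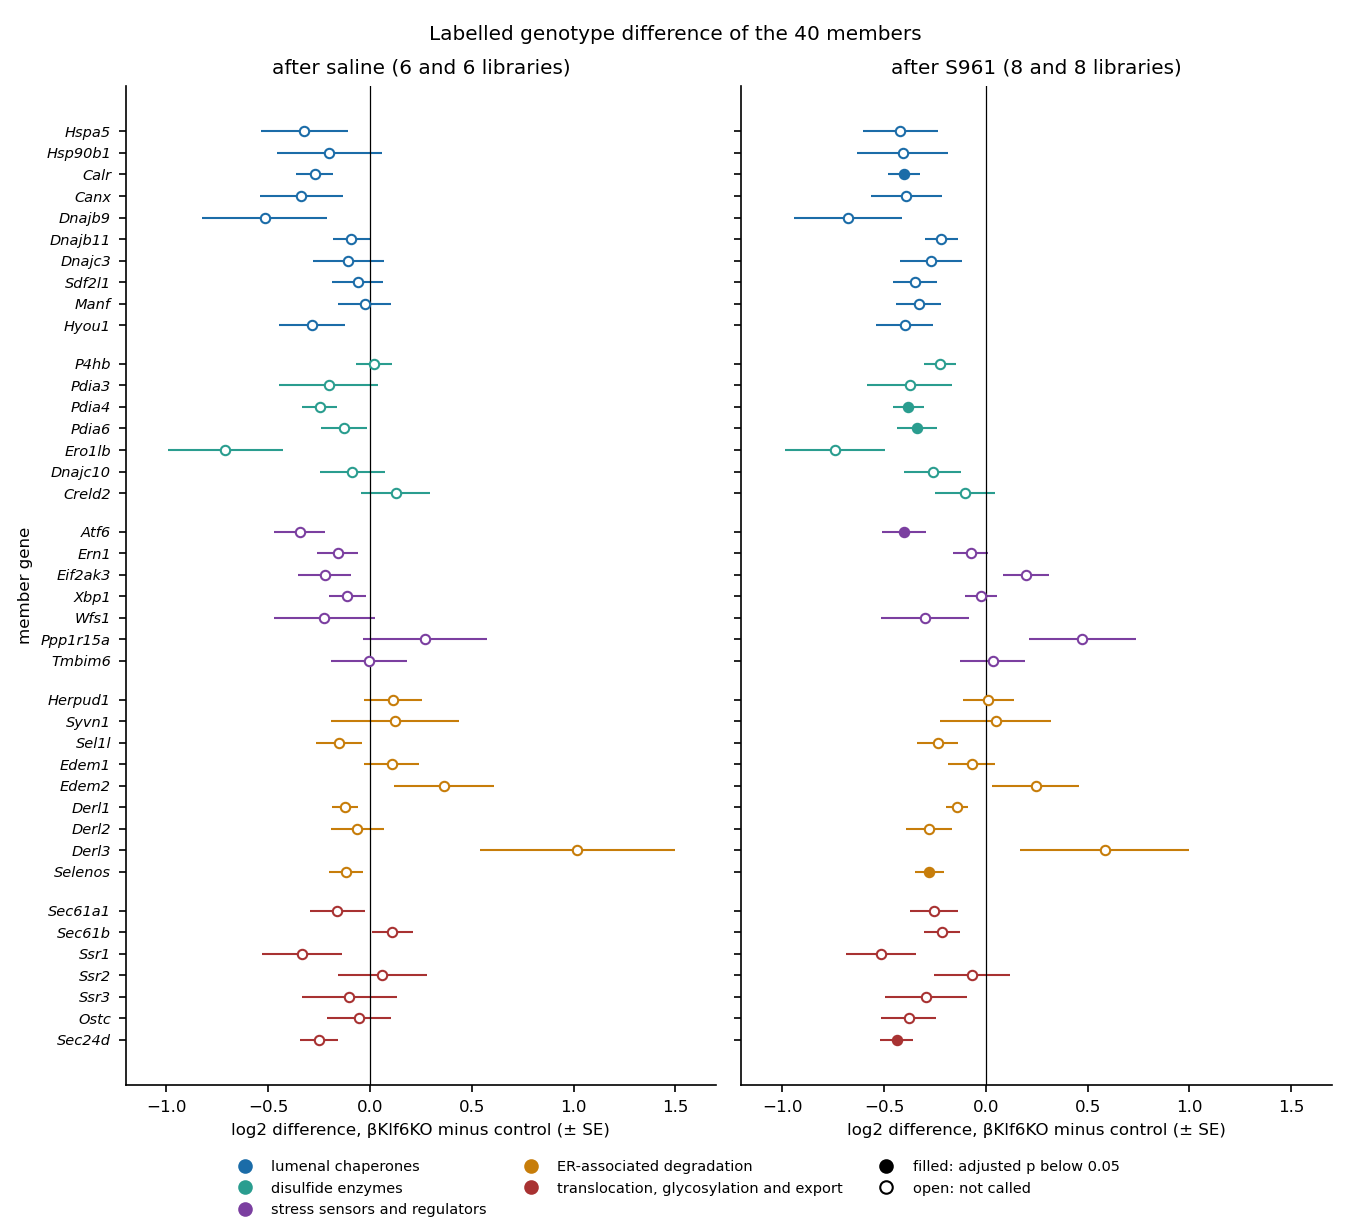
Log2 difference of each member between libraries labelled βKlf6KO and control (points, with standard errors as bars), after saline on the left and after S961 on the right, grouped by role. Filled points have an adjusted p below 0.05: none of the 40 after saline and 6 after S961, all below 0.

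The lumenal chaperones bind unfolded chains or assist BiP. All 10 had log2 differences below 0 after S961, with a median of -0.39, and 8 of 10 had an unadjusted p below 0.05, but only Calr passed the adjusted threshold. Without the 3 libraries all 10 were again below 0, with a median of -0.20, and Calr and Hyou1 passed. Calr encodes calreticulin, a lectin chaperone of glycoproteins that also binds calcium. It ranged from 9.73 to 10.22 log2 CPM (median 9.92) in control S961 and from 9.46 to 9.71 (median 9.52) in βKlf6KO S961. Every βKlf6KO library lay below every control library, and Calr fell by 24.4% (log2 difference -0.40 ± 0.08 SE, n = 8 and 8, limma adjusted p = 0.00753).

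Hspa5, the most abundant member, did not pass. It ranged from 11.13 to 12.68 log2 CPM (median 11.45) in control S961 and from 11.02 to 11.54 (median 11.19) in βKlf6KO S961. The groups overlapped, although all 8 βKlf6KO libraries lay below the control mean. Both control S961 libraries that stand apart were among the highest in Hspa5. The log2 difference was -0.42 ± 0.18 SE (adjusted p = 0.175) with all libraries and -0.16 ± 0.12 SE (adjusted p = 0.45) without the 3 libraries. Dnajb9, a co-chaperone of BiP, had -0.68 (adjusted p = 0.127) and -0.31 in the same order, and Hsp90b1 (GRP94) had -0.41 and -0.12. For Hyou1, an exchange factor for BiP, the difference of -0.40 (adjusted p = 0.0905) was -0.55 without the 3 libraries (adjusted p = 0.0072). The co-chaperone Sdf2l1 had -0.35 (adjusted p = 0.0596) and the secreted ER factor Manf had -0.33 (adjusted p = 0.0799). Canx, the membrane-bound relative of calreticulin, had -0.39, and the BiP co-chaperones Dnajb11 and Dnajc3 had -0.22 and -0.27. Canx had -0.16, Dnajc3 -0.09 and Dnajb11 -0.17 without the 3 libraries.

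Disulfide enzymes form, rearrange or break disulfide bonds in the ER. All 7 had values below 0 after S961 (median -0.34), and 2 were called. Pdia4, a disulfide isomerase with several thioredoxin-like domains, ranged from 7.97 to 8.46 log2 CPM (median 8.13) in control S961 and from 7.62 to 7.91 (median 7.78) in βKlf6KO S961. The groups did not overlap, and Pdia4 fell by 23.2% (log2 difference -0.38 ± 0.08 SE, adjusted p = 0.00787). Pdia6 ranged from 8.81 to 9.32 (median 9.15) and from 8.53 to 9.01 (median 8.75) in the same groups. These ranges overlapped, and Pdia6 fell by 21.0% (log2 difference -0.34 ± 0.10 SE, adjusted p = 0.0471). The lowest value of all members was that of Ero1lb, a β-cell-enriched oxidase that recharges the isomerases, at -0.74 ± 0.24 SE (adjusted p = 0.0728). It ranged widely within groups, from 9.15 to 10.82 log2 CPM in control S961 and from 8.28 to 9.80 in βKlf6KO S961. The isomerases P4hb and Pdia3 had -0.23 and -0.37, the reductase Dnajc10 -0.26 and Creld2 -0.10. Pdia3 had -0.10, Dnajc10 -0.09 and Creld2 -0.32 without the 3 libraries, where the median of the 7 was -0.32.

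The sensors and regulators did not share a direction after S961 (median -0.03, with 4 of 7 below 0, or 0.08 with 2 of 7 below 0 under quantile scaling). Atf6 ranged from 7.71 to 8.50 log2 CPM (median 7.92) in control S961 and from 7.27 to 7.87 (median 7.57) in βKlf6KO S961. The groups overlapped, and Atf6 fell by 24.4% (log2 difference -0.40 ± 0.11 SE, adjusted p = 0.0347). Without the 3 libraries its difference was -0.29 and the call was lost (adjusted p = 0.0644). Ern1, the kinase and endonuclease that splices Xbp1 mRNA, ranged from 7.56 to 8.06 log2 CPM (median 7.95) in control S961 and from 7.46 to 8.07 (median 7.88) in βKlf6KO S961. Xbp1 ranged from 9.16 to 9.68 (median 9.32) and from 9.14 to 9.57 (median 9.34). The ranges of both genes overlapped over most of their length, with log2 differences of -0.07 ± 0.09 SE and -0.03 ± 0.08 SE (adjusted p = 0.615 and 0.855). Eif2ak3 ranged from 6.76 to 7.67 (median 6.99) in control S961 and from 7.01 to 7.59 (median 7.23) in βKlf6KO S961. Its difference was 0.20 ± 0.11 SE (adjusted p = 0.298). Ppp1r15a (GADD34), which reverses the translation block set by PERK, had 0.47 ± 0.26 SE (adjusted p = 0.282), the ER calcium regulator Wfs1 had -0.30 and Tmbim6 had 0.03. Ppp1r15a had 0.14, Wfs1 -0.54 and Tmbim6 -0.16 without the 3 libraries, where the median of the 7 was -0.11.

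ER-associated degradation returns misfolded chains to the cytosol. Of 9 genes, 5 had values below 0 after S961 (median -0.07) and 1 was called. Selenos, a selenoprotein that joins the cytosolic ATPase VCP to the derlins, ranged from 6.98 to 7.47 log2 CPM (median 7.14) in control S961 and from 6.81 to 7.05 (median 6.89) in βKlf6KO S961. The ranges overlapped only at their edges, and Selenos fell by 17.6% (log2 difference -0.28 ± 0.07 SE, adjusted p = 0.0293). The derlin genes Derl1 and Derl2 had -0.14 and -0.28, whereas Derl3 had 0.58 ± 0.42 SE, and none of them passed. The ubiquitin ligase Syvn1 and its partner Sel1l had 0.05 and -0.24, the mannosidase-like Edem1 and Edem2 had -0.07 and 0.25, and Herpud1 had 0.01. Several of these values turned or shrank without the 3 libraries, where Syvn1 had -0.34, Edem2 -0.05, Edem1 0.02, Herpud1 -0.15, Derl2 -0.15 and Derl3 0.04. Then 7 of 9 were below 0, with a median of -0.15. With the GC correction Syvn1 had -0.22 and was called lower (adjusted p = 0.0456).

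The 7 genes of translocation, glycosylation and export all had values below 0 after S961 (median -0.29), and 1 was called. Sec24d, a cargo-binding subunit of the COPII coat that carries proteins from the ER to the Golgi, ranged from 7.39 to 7.78 log2 CPM (median 7.63) in control S961 and from 6.87 to 7.38 (median 7.18) in βKlf6KO S961. The groups did not overlap, and Sec24d fell by 26.2% (log2 difference -0.44 ± 0.08 SE, adjusted p = 0.00584), the smallest adjusted p of any member. Of the translocon-associated genes, Ssr1 had -0.52 (adjusted p = 0.0742), Ssr2 -0.07 and Ssr3 -0.29. The channel subunits Sec61a1 and Sec61b had -0.26 and -0.21, and Ostc, a subunit of oligosaccharyltransferase, had -0.38. Ssr1 had -0.30, Ssr2 -0.33, Ssr3 -0.02 and Ostc -0.22 without the 3 libraries, with a median of -0.30 over the 7.

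Sec24d, Calr and Pdia4 were the 3 of 40 members whose S961 groups did not overlap, against 0.28% of all genes tested in the lower direction. Relative to the rest of their groups, the libraries that stand apart (control saline 4, control S961 2 and control S961 8) lay at -0.07, 0.14 and -0.23 on the log2 scale in Sec24d. They lay at 0.01, 0.21 and -0.05 in Calr and at 0.03, 0.20 and -0.18 in Pdia4. In each gene control S961 library 2 was above and library 8 below the rest of the group. The 3 genes kept their calls when any 1 of the 28 libraries was left out, with adjusted p of at most 0.0188, 0.0217 and 0.0243. Within the 4 sequencing lanes named in the labels, with 2 libraries of each genotype per lane, the S961 differences lay between -0.49 and -0.35 for Sec24d, -0.52 and -0.27 for Calr and -0.46 and -0.25 for Pdia4. The within-lane differences of Selenos lay between -0.44 and -0.19, those of Pdia6 between -0.50 and -0.10, those of Atf6 between -0.70 and 0.07 and those of Hspa5 between -0.76 and 0.20. Leaving out control S961 library 2 or 3, or βKlf6KO S961 library 6 or 7, left 3 calls, which were Sec24d, Calr and Pdia4. Pdia6 lost its call in 22 of the 28 fits without 1 library (highest adjusted p = 0.0973), Atf6 in 7 and Selenos in 4. In a fit of the S961 groups alone only Sec24d was called (0.103% of all genes), and under quantile scaling none of Sec24d, Calr and Pdia4 was.

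**Figure D3:**
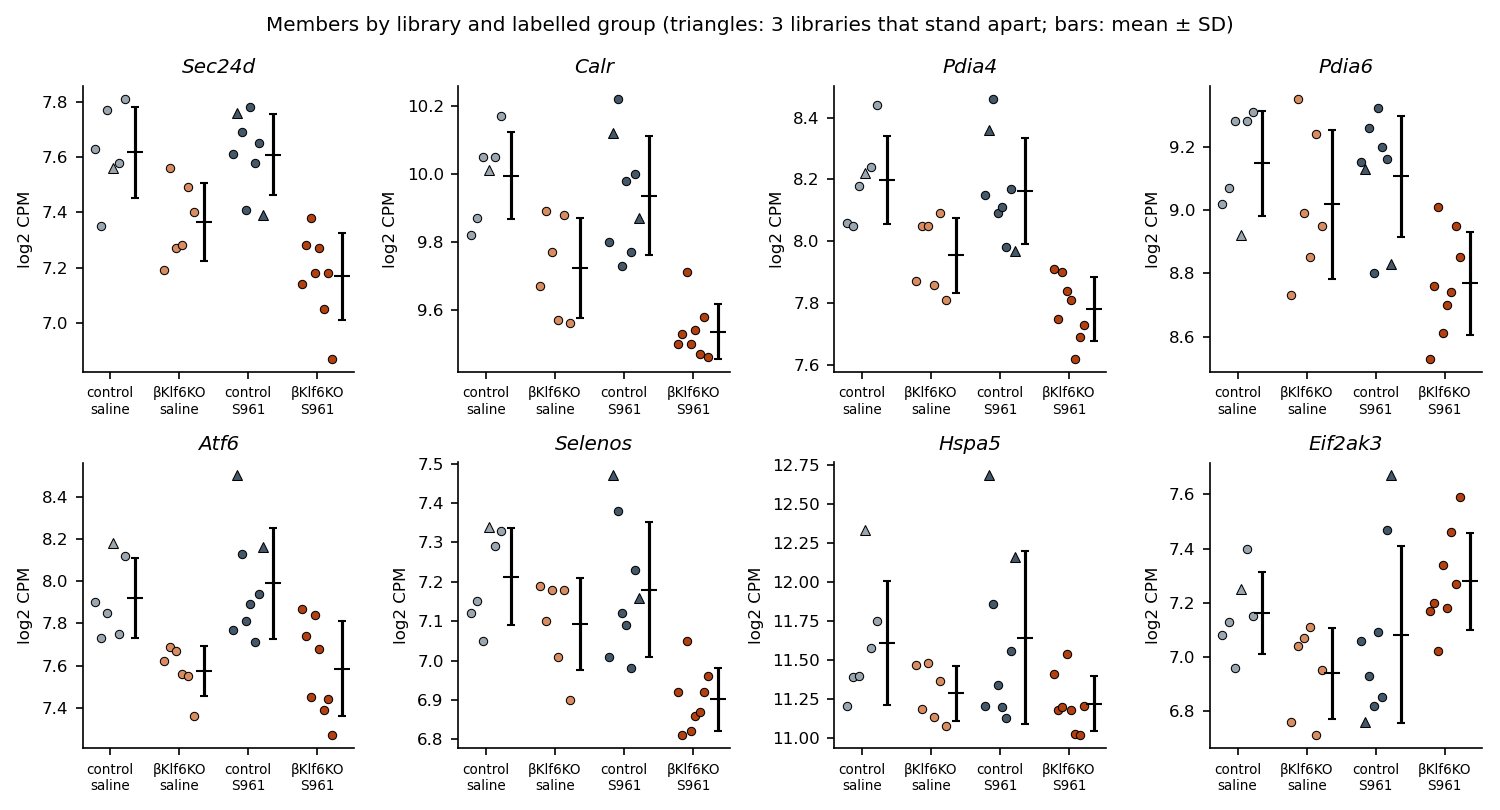
Log2 CPM of 8 members in every library by labelled group, with the mean and SD at the right of each group. For Sec24d, Calr and Pdia4 all 8 βKlf6KO S961 libraries lie below all 8 control S961 libraries, while Hspa5 and Eif2ak3 overlap; triangles mark the 3 libraries that stand apart, which are high in Hspa5.

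After saline, in other mice, no member was called for genotype. Over all genes 0.692% were called lower and 2.09% higher. At an unadjusted p below 0.05, 5 members were lower and 1 higher, against 6.59% and 7.78% of all genes, and 30 of 40 values were below 0 (median -0.11), against 50.1% of all genes. Calr ranged from 9.82 to 10.17 log2 CPM (median 10.03) in control saline and from 9.56 to 9.89 (median 9.72) in βKlf6KO saline. Pdia4 ranged from 8.05 to 8.44 (median 8.20) and from 7.81 to 8.09 (median 7.96). Both overlapped slightly between groups, with log2 differences of -0.27 ± 0.09 SE (adjusted p = 0.116) and -0.25 ± 0.09 SE (adjusted p = 0.135). Sec24d had -0.25 (adjusted p = 0.165) and Ero1lb -0.71 (adjusted p = 0.203).

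Atf6 ranged from 7.73 to 8.18 log2 CPM (median 7.87) in control saline and from 7.36 to 7.69 (median 7.59) in βKlf6KO saline. It was the only member whose saline groups did not overlap, against 1.64% of all genes in the lower direction, with a log2 difference of -0.34 ± 0.12 SE (adjusted p = 0.149). Hspa5 ranged from 11.21 to 12.33 (median 11.49) in control saline and from 11.08 to 11.48 (median 11.28) in βKlf6KO saline, with -0.32 ± 0.21 SE (adjusted p = 0.559). Ern1 ranged from 7.71 to 8.07 (median 7.91) and from 7.64 to 7.89 (median 7.72), Xbp1 from 9.25 to 9.44 (median 9.39) and from 9.10 to 9.48 (median 9.20), and Eif2ak3 from 6.96 to 7.40 (median 7.14) and from 6.71 to 7.11 (median 6.99). All 3 overlapped, with differences of -0.16, -0.11 and -0.22 (adjusted p = 0.531, 0.664 and 0.481). Of the 6 members called after S961, Selenos had -0.12 and Pdia6 -0.13 after saline. With the GC correction for base composition, 5 members were lower and 1 higher after saline, against 4.32% and 5.76% of all genes. With the first principal component as a covariate 9 were lower and 1 higher (11.7% and 9.03% of all genes), and with library weights 7 and 1 (10.7% and 11.5%). In a fit of the saline groups alone only Ero1lb was lower (1.06% of all genes), and without the 3 libraries only Hyou1 (1.66%).

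Derl3 was the member with a higher value in βKlf6KO saline at an unadjusted p below 0.05. It ranged from -0.71 to 2.15 log2 CPM in control saline and from 1.73 to 3.04 in βKlf6KO saline, with a difference of 1.02 ± 0.48 SE (adjusted p = 0.323). Derl3 is abundant in secretory cells such as plasma cells. The summed level of 10 measured plasma and B cell markers ranged from 4.9 to 24.4 CPM in control saline and from 5.19 to 954.6 CPM in βKlf6KO saline, with none of the 10 at 0 in all libraries. The lowest Derl3 value belonged to control saline library 4, one of those that stand apart. The part of either in the Derl3 difference was not tested.

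S961 itself moved no member past the threshold in either genotype. In control islets 0 of 13591 genes were called (0%) in limma. At an unadjusted p below 0.05, 44 genes were lower (0.324%) and 60 higher (0.441%), and 0 members were either. The members' log2 differences between S961 and saline ran from -0.18 to 0.18, with 20 of 40 below 0, against 49.7% of all genes. The smallest p belonged to Edem1, a lectin-like gene that hands misfolded glycoproteins to degradation. It ranged from 7.32 to 8.05 log2 CPM (median 7.43) in control saline and from 7.39 to 8.19 (median 7.80) in control S961, with a difference of 0.18 ± 0.13 SE (adjusted p = 0.973). Derl2 was next with 0.13 ± 0.12 SE (adjusted p = 0.973), with ranges of 7.23 to 7.78 and 7.21 to 8.16 log2 CPM. The groups overlapped in both genes. Hspa5 had 0.03 ± 0.20 SE, Atf6 0.07 ± 0.12 SE, Xbp1 -0.01 ± 0.09 SE, Ern1 0.01 ± 0.09 SE and Eif2ak3 -0.08 ± 0.12 SE.

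In islets labelled βKlf6KO 0 genes were called for S961, and 8 members were lower and 1 higher at an unadjusted p below 0.05, against 1.23% and 1.81% of all genes. Of the 40 values 33 were below 0, against 49.2% of all genes. P4hb, the archetypal disulfide isomerase, ranged from 10.34 to 10.79 log2 CPM (median 10.61) in βKlf6KO saline and from 10.24 to 10.49 (median 10.31) in βKlf6KO S961. Sec61b ranged from 6.37 to 6.88 (median 6.55) and from 6.01 to 6.66 (median 6.29). Both pairs of groups overlapped, with log2 differences of -0.26 ± 0.08 SE and -0.28 ± 0.10 SE, and both had an adjusted p of 1.0 in limma. The others that were lower at an unadjusted p below 0.05 were Sdf2l1, Selenos, Pdia6, Sec24d, Calr and Pdia4, between -0.32 and -0.17. Eif2ak3 lay above the saline mean in all 8 S961 libraries, with 0.34 ± 0.12 SE (adjusted p = 1.0). It ranged from 6.71 to 7.11 log2 CPM in βKlf6KO saline and from 7.01 to 7.59 in βKlf6KO S961, with a small overlap. These libraries also enter the genotype comparisons above, so the comparisons share samples.

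The difference between the S961 responses of the labelled genotypes tests whether the genotype differences depended on treatment. In limma 0 genes were called, and 2 members were lower and 1 higher at an unadjusted p below 0.05, against 1.18% and 1.39% of all genes. Eif2ak3 had 0.42 ± 0.17 SE, Sec61b -0.33 ± 0.13 SE and P4hb -0.24 ± 0.12 SE, each with an adjusted p of 1.0. Calr, Pdia4 and Sec24d, called for genotype after S961 and not after saline, had -0.13 ± 0.12 SE, -0.13 ± 0.12 SE and -0.19 ± 0.12 SE, so their genotype differences were not shown to differ between treatments. Of the 40 members, 35 had values below 0 (median -0.13), against 48.4% of all genes.

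Other genes of the same pathways were taken from lists of textbook members, and no test compared these lists with the members. Among 20 measured genes of ER to Golgi transport, 4 were lower in βKlf6KO S961: the COPII coat genes Sec23b (-0.40 ± 0.08 SE, adjusted p = 0.00611) and Sec31a (-0.32), the retrieval receptor Kdelr2 (-0.32) and the cargo lectin Lman1 (-0.54). The retrieval receptor Kdelr3 was higher (0.51 ± 0.11 SE, adjusted p = 0.0107), and it was also higher after saline (0.46, adjusted p = 0.0391). Of the 20 transport genes 18 had values below 0 after S961 (median -0.19). Among 25 other translocation and glycosylation genes only Rpn1 was lower (-0.31, adjusted p = 0.0459), with 16 values below 0 and a median of -0.17. Among 25 other folding genes only Txndc11 was lower (-0.22, adjusted p = 0.0346). Of these folding genes 11 had values below 0 (median 0.10), and at an unadjusted p below 0.05, 6 were lower and 4 higher. With the deposited values of all libraries, they did not share the direction of the chaperones and disulfide enzymes among the members. These lists are not given here without the 3 libraries or with the GC correction, under which the signs of some members turned. None of 19 other degradation genes was called, Vcp having the smallest p (-0.18, adjusted p = 0.142), and 11 had values below 0 (median -0.03).

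The branch downstream of PERK and ATF4 lay in the other direction after S961. Of 19 measured genes 2 were higher and 0 lower, 2 had values below 0, and the median was 0.35. The 2 were Ddit4, an inhibitor of mTORC1 signalling, with 0.69 ± 0.18 SE (adjusted p = 0.0308), and Nupr1, a stress-induced chromatin protein, with 1.25 ± 0.37 SE (adjusted p = 0.0486). Nupr1 had SDs of 1.13 in control S961 and 0.668 in βKlf6KO S961. Without the 3 libraries the median of the branch was 0.17, with 4 of 19 values below 0. In that fit 2 of the 19 were called higher and 1 lower, against 502 and 356 of 13591 genes. With the first principal component as a covariate 4 were higher and 1 lower, against 1639 and 2190 genes. After saline 0 of 19 were called (median 0.07). Also after saline, the peroxiredoxin Prdx4 (0.84), the signal peptidase subunit Sec11c (0.68) and the translocon-associated Ssr4 were higher in βKlf6KO libraries (adjusted p = 0.00514, 0.011 and 0.0111).

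Markers of cell types moved beside these differences, and they are given here with all libraries only. Over all genes, 2.01% were called lower and 2.35% higher after S961, and 0.692% and 2.09% after saline. After S961, 4 of 12 β-cell markers were lower in βKlf6KO libraries (Pdx1, Slc2a2, Slc30a8 and Nkx6-1), a list that also holds Ero1lb, and the summed level ranged from 61861 to 228156 CPM in control and from 73614 to 158372 CPM in βKlf6KO libraries. Of 12 fibroblast and stellate cell markers 6 were higher, with sums of 104.4 to 184.5 and 165.4 to 285.2 CPM. Of 7 duct markers 1 (Spp1), of 12 macrophage markers 1 (Cd14) and of 12 proliferation genes 5 were higher. None of 16 acinar markers was called, with sums of 5785 to 39623 CPM in control and 25574 to 106887 CPM in βKlf6KO libraries, and acinar cells are rich in the same ER genes. At an unadjusted p below 0.05, 10 of 16 acinar markers were higher and 1 lower (median log2 difference 0.89), against 12% and 10.9% of all genes. Higher at the same threshold were 5 of 7 duct markers (median 1.03), 7 of 12 macrophage, 8 of 12 fibroblast and 10 of 12 proliferation markers. None of 10 plasma and B cell, 10 endothelial or 8 α, δ and PP cell markers was called. After saline, 2 β-cell markers were lower, and 10 proliferation, 5 macrophage and 2 fibroblast markers were higher. No list held a marker at 0 in all libraries of a group, and the part of these cells in the members' differences was not tested.

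The 3 libraries that stand apart split the members by base composition. Relative to the rest of their groups, their mean was higher in 25 members and lower in 15. It was highest for Dnajb9 (1.41 on the log2 scale, GC content 40.6%), Hsp90b1 (1.12, 42.0%), Pdia3 (1.08, 46.9%) and Ssr3 (1.08, 40.8%), with 0.98 for Hspa5 (45.6%). It was lowest for Derl3 (-2.29, GC content 57.3%), Syvn1 (-1.52, 56.6%), Ppp1r15a (-1.37, 55.7%) and Edem2 (-1.16, 53.3%). Across the 40 members, which share these libraries, GC content and this mean had a Spearman correlation of -0.86. High Hspa5 and Hsp90b1 with low Syvn1, Derl3 and Edem2 thus marked these libraries within the control groups. The same libraries were the lowest in Ins2 RNA, and whether this pattern goes with GC content or with insulin RNA was not tested.

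**Figure D4:**
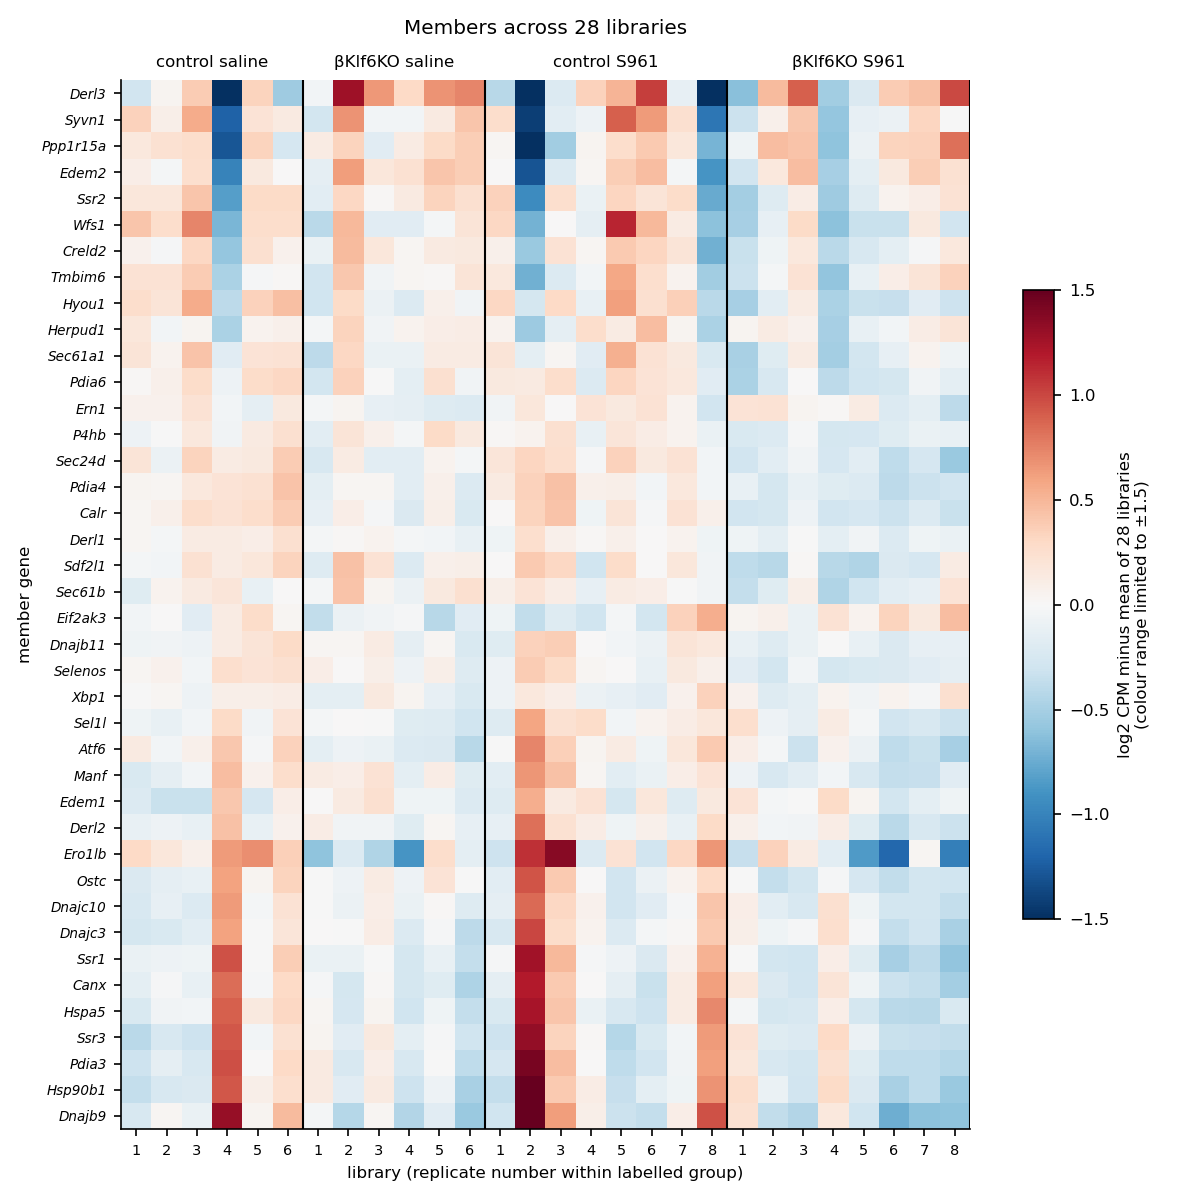
Log2 CPM of the 40 members minus each gene's mean over 28 libraries, with libraries in columns by labelled group and genes ordered by their difference in the 3 libraries that stand apart. Control saline library 4 and control S961 libraries 2 and 8 are high for genes from Hspa5 to Dnajb9 at the bottom and low for genes from Derl3 to Edem2 at the top.

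GC content also ran with the genotype difference after S961 across the members (Spearman 0.61 with the deposited values). After a correction of each library for GC content in 20 bins of genes, the correlation was -0.000375, and without the 3 libraries it was -0.14. With the correction 20 members were lower after S961, against 10% of all genes, among them Hspa5 (-0.31, adjusted p = 0.0268), Hyou1 (-0.50) and Wfs1 (-0.61), and with the first principal component as a covariate 25 were, against 16.1%. Without the 3 libraries 7 were lower, against 2.62% of all genes: Sec24d, Pdia4, Calr, Hyou1, Pdia6, Selenos and Creld2. Sec24d, Calr and Pdia4 had -0.45, -0.38 and -0.38 there and -0.45, -0.39 and -0.31 with the correction. The number of members called therefore moved with the treatment of GC content, while the sign was below 0 for every called member in each of these fits. Quantile scaling left 2 calls (Atf6 and Ssr1, against 1.61% of all genes), with 30 of 40 values below 0 and a median of -0.14.

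**Figure D5:**
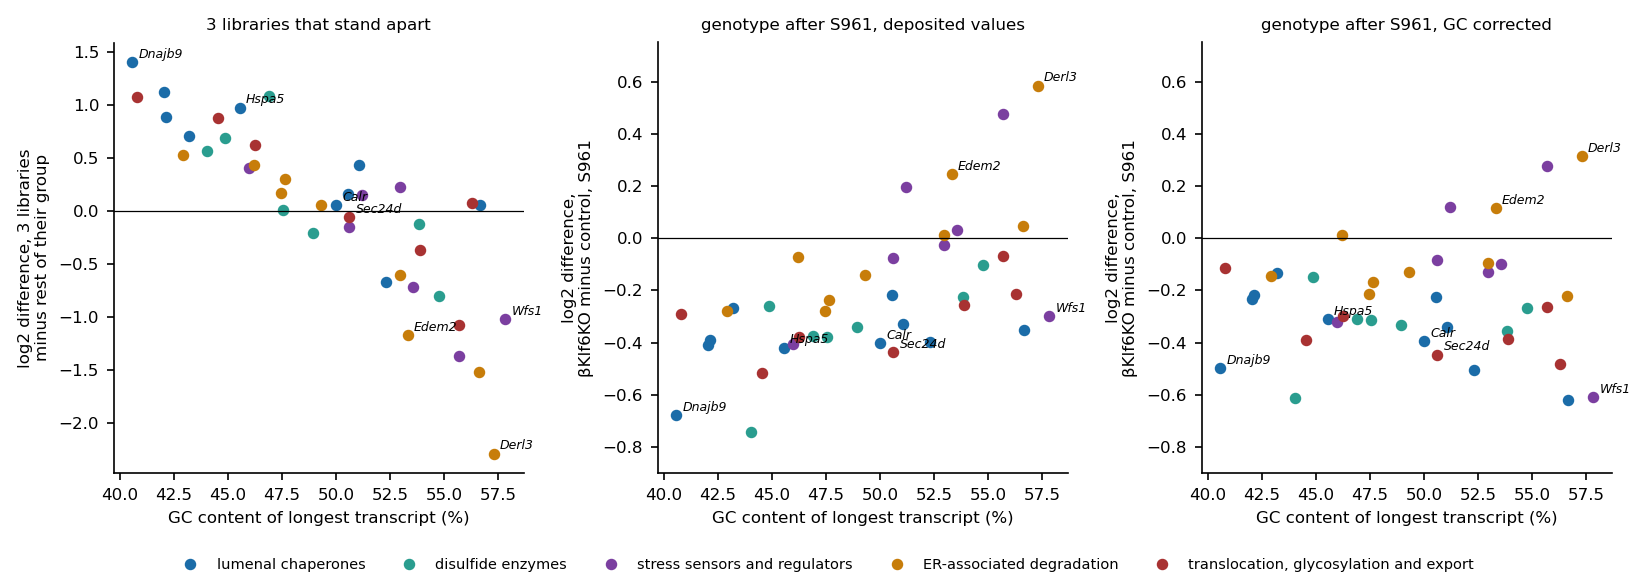
GC content of the longest transcript of each member against its log2 difference in the 3 libraries that stand apart (left) and its genotype difference after S961 in deposited values (middle) and after GC correction (right). The left panel falls with GC content (Spearman -0.86), the middle rises (0.61) and the right shows no slope, while Calr and Sec24d stay near -0.4 in both.

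Between mice of one group, members varied with Hspa5 in a way that depended on base composition too. Of 39 members, 20 correlated positively and 11 negatively with Hspa5 over 28 libraries after group means were removed (Pearson, permutation test with 100000 resamples within groups, Benjamini-Hochberg adjusted over the 39). Because 3 libraries stand apart, the values without them carry the description: 20 members were then positive and 8 negative. Manf had r = 0.92 and Spearman's rho = 0.94 over all libraries (adjusted permutation p = 2.29e-05 and 3.55e-05), r = 0.86 without the 2 libraries farthest in Hspa5, and r = 0.94 without the 3. Within the 4 lanes, of 7 libraries each, its r lay between 0.69 and 0.98. Syvn1 had r = -0.89 and rho = -0.78 (adjusted permutation p = 2.29e-05 and 6.5e-05), r = -0.79 without the 2 farthest, r = -0.66 without the 3, and r between -0.97 and -0.87 within lanes.

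After GC correction 20 members were positive, not all of them the ones before, and Edem2 alone was negative (r = -0.53). Manf then had r = 0.90, Dnajb9 0.90 and Pdia3 0.88, while Syvn1 had 0.03. The small co-chaperone Sdf2l1 and the isomerase P4hb, which had 0.21 and -0.14 with the deposited values, had 0.91 and 0.90 after correction. Without the 3 libraries, and without the correction, they had 0.16 and 0.12. Within lanes, also uncorrected, r lay between -0.32 and 0.29 for Sdf2l1 and between -0.42 and -0.17 for P4hb. Their high values thus appeared only with the correction, and whether the correction itself added them was not tested. Atf6, at 0.81 before, had 0.12. Sec24d had 0.02 before and 0.42 after, and Calr 0.46 and 0.63.

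Of the 10 members with ERSE upstream, 8 had values below 0 for genotype after S961 (median -0.365), while Syvn1 and Derl3 had 0.05 and 0.58. Calr and Pdia6 were the 2 called. Of all 40 members 33 were below 0 (82.5%, median -0.27) and 6 were called (15%), so members with ERSE did not stand out from the members as a whole. Over all genes tested 47.6% were below 0 and 2.01% were called lower. Without the 3 libraries Syvn1 had -0.34 and Derl3 0.04, and with the GC correction Syvn1 was called lower (-0.22, adjusted p = 0.0456), so the sign of Syvn1 differed between these fits. Of 8 other measured genes with ERSE in their promoter entry, 3 had values below 0 and 0 were called (median 0.16). Sec24d, Pdia4 and Selenos, called after S961, had no ERSE in their entries, and Atf6 had no entry.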

How the data were processed

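RNA of islets from 28 mice, 1 library each, was sequenced as 125 bp single ends from TruSeq stranded mRNA libraries, per the labels' protocols. The authors deposited log2 CPM values (log2 of reads scaled to library size) in 1 table, made with the build GRCm38 and with HTSeq 0.9.1, STAR 2.5.3a and edgeR among the programs, per the submitters' processing notes. Overlapping genes may share reads, since the sources used here do not give the strand setting of the counting. Genes that reached 1 CPM in 6 or more libraries were fitted with limma 3.58.1 (intensity trend, R 4.3.3) as 4 group means, with 5 contrasts, and p-values were Benjamini-Hochberg adjusted over all 13591 genes; called means an adjusted p below 0.05. All p-values described as adjusted come from this limma fit unless a permutation or an alternative limma fit is named with them. The fit with the GC correction tested 13584 genes. Whole reads were recovered within 0.05 for 100% of values, and voom on them called 390 genes for genotype after saline and 680 after S961.

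The members and gene lists were chosen with earlier results of these data known. Hspa5, the 3 called members with the smallest p of each comparison (the smallest 2 where none was called) and Atf6, Ern1, Eif2ak3 and Xbp1 are given by library range. Further genes given by range were chosen after their values were seen. From each other list the 3 called genes with the smallest p, or the gene with the smallest p, are named, and Lman1 and Kdelr3 were added after their values were seen. Alternatives were quantile scaling, median centring, a floor, 2 other filters, robust or untrended moderation, library weights, voom weights, fits of the compared groups alone, lane, replicate block, first principal component, GC correction, and leaving out libraries. The limma fit was tested on simulated data with independent normal noise, of the same spread in every library for a given gene. That setting holds no shared component and no libraries that stand apart. Its differences were larger than those called among the members, so it does not test these calls. A marker result after saline is not reported here.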

Additional observations from a re-analysis of the deposited data

Results flagged for a closer look

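A library in each control group lay far from the rest of their group in Derl2, a derlin of the degradation channel. Control saline library 4 had 7.78 log2 CPM, with a gap of 0.38 to the next library in a group range of 0.56. Control S961 library 2 had 8.16 log2 CPM, with a gap of 0.54 in a range of 0.95. In all, 56 groups were checked, those of 14 members given by library, and chance alone marks about 1 in 20. Both libraries are among the 3 that stand apart on the first principal component. Members not flagged also had control saline library 4 far from the rest. Ssr2 had 6.95 log2 CPM there and 7.95 to 8.19 in the other control saline libraries, and Edem2 had 5.83 and 6.81 to 7.09.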

How the results depend on the processing

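The genes called in either direction, of 13591 unless given, stand in brackets. For genotype after S961, 6 members were called (593 genes). Quantile scaling gave 2 (395 genes) and only the groups compared 1 (35 genes). The first principal component as a covariate gave 25 (3829 genes) and GC correction 20 (2556 of 13584 genes). Leaving out 1 library gave 3 to 7. The other alternatives gave 6 or 7. For genotype after saline, 0 were called (378 genes). Library weights gave 8 (3018 genes), only the groups compared 1 (467 genes) and the first principal component 10 (2821 genes). GC correction gave 6 (1370 of 13584 genes) and the fit without the 3 libraries that stand apart 1 (690 genes). Leaving out 1 library gave 0. The 3 remaining comparisons gave 0 under each alternative run. Correlations with Hspa5 were called for 31 members, 28 without the 3 libraries and 21 with GC correction. Why the counts moved was not tested, apart from the values given for GC content. A fit of only the groups compared has no form for the difference of responses.

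With a replicate block, 7 members were called for genotype after S961, adding Sdf2l1, and 0 in every other comparison. The numbers did not pair libraries: of 38 pairs with the same number, 13 had a correlation of deviations above 0.1, the median was -0.07, and 2 of 28 libraries correlated best with their own number.

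Gene counts cannot separate a change in cell makeup from a change per cell, and Derl3 lay near the 1 CPM filter. Neither Klf6 RNA nor the ratio of Ins1 to Ins2 gave a check of the genotype labels, on which every genotype comparison here rests.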
